A study of Schizosaccharomyces pombe with 8 samples.

Results

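Tf2 elements are the full-length LTR retrotransposons of the Schizosaccharomyces pombe reference strain. They were described here as 9 rows of the count tables, chosen by their systematic names, out of 6973 named features: Tf2-1 (SPAC9.04), Tf2-2 (SPAC167.08), Tf2-3 (SPAC2E1P3.03c), Tf2-4 (SPAC26A3.13c), Tf2-6 (SPAC27E2.08), Tf2-7 (SPAC13D1.01c), Tf2-8 (SPAC19D5.09c), Tf2-11 (SPBC1289.17) and Tf2-12 (SPCC1020.14). Another 4 rows of the tables, Tf2-5, Tf2-9, Tf2-10 and Tf2-13, were annotated as Tf2 elements as well and are given beside the 9 for comparison.

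A Tf2 element carries a long terminal repeat at each end, and transcription from the left repeat gives an RNA that serves both as mRNA and as the template for new DNA copies. Its single open reading frame encodes Gag, which forms the particle, followed by a protease, a reverse transcriptase and an integrase. The integrase places new copies upstream of genes transcribed by RNA polymerase II. Mmi1 is a YTH-domain protein that binds UNAAAC motifs and directs meiotic mRNAs to degradation in mitotic cells, and Mei2 is the RNA-binding protein that drives entry into meiosis.

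The libraries came from sequential RNA immunoprecipitation, in which Mmi1 was captured on IgG, released with TEV protease, and then captured again through Mei2 with anti-FLAG. The strain of interest carried kanMX::Pnmt41-TAP-Mmi1 together with natMX::Pnmt1-3xFLAG-Mei2. The control strain carried kanMX::Pnmt41-GFP-Mmi1, whose GFP tag is not bound by IgG, beside the same Mei2 allele. Each strain gave 2 immunoprecipitates (IP) and the 2 whole-cell extracts (WCE) they were made from, 8 libraries in 4 groups, called here the TAP pulldown, TAP extract, GFP pulldown and GFP extract. Both strains expressed both proteins from nmt1-type promoters in place of their own, were grown to exponential phase in minimal medium (EMM) at 30 °C, and were crosslinked with 0.2% formaldehyde. Nothing in the labels says that replicates 1 and 2 of a strain came from separate cultures, so p-values measure only the spread between these libraries.

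Total counts per library were 34415561 to 53703741. Ribosomal RNA, which was depleted from the WCE RNA only, took 79.2% and 82.0% of counts in the TAP pulldown, 96.4% and 96.0% in the GFP pulldown, and 7.98% to 27.4% in the WCE libraries. Scaling to library totals and scaling by the trimmed mean of M-values (TMM), which sets aside features that take a large share of one library, therefore gave different Tf2 levels, and both are shown as CPM, the count divided by the size of its library in the usual unit.

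The 9 reading frames were nearly one sequence in the ASM294v3 reference. Each was 4002 nt long, the 36 pairs were 99.6% to 100% identical, 7 pairs did not differ at all, and the 9 copies held 4 distinct sequences. Tf2-1, Tf2-2 and Tf2-4 shared the first, Tf2-3, Tf2-6 and Tf2-12 the second, and Tf2-7 and Tf2-8 the third, while Tf2-11 stood alone with 16 differences from Tf2-1. Positions were counted from 1 at the first base of the reading frame, with the base of Tf2-1 written first. The second sequence differed from the first by T153A and T617C, shown here with the differing base in capitals because these are all the bases that tell the first and second groups apart.
Tf2-1 at 153: aattcgatccTaataaggatg
Tf2-3 at 153: aattcgatccAaataaggatg
Tf2-1 at 617: cgttttcaacTgcaaaataaa
Tf2-3 at 617: cgttttcaacCgcaaaataaa

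Tf2-7 and Tf2-8 carried these differences and 8 more, 10 in all, among them C1619T, G1699A and T2085G. Tf2-11 shared T617C and most of the differences between 1619 and 2130 with Tf2-7, lacked T153A and T2085G, and had its own, such as A340C and G820A. Over windows of 75 nt, the length of one sequencing read, 8 of the 9 copies had no window that was absent from the other 12 Tf2 rows, and Tf2-11 had 533 of 3928 (13.6%). The count of a single copy is therefore uncertain, and the sum of the 9 rows is a firmer measure than any single copy. Outside the 9, Tf2-9 has the first sequence and Tf2-5 the second, so reads may be shared with these rows too. The copies are not independent measurements, and a number of copies that are called or agree is not a number of separate results.

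The copies lay on chromosome I, except Tf2-11 on II and Tf2-12 on III (positions in ASM294v3). Tf2-1 was at chrI:1465847-1469848, Tf2-6 at chrI:4022492-4026493 and Tf2-11 at chrII:4414657-4418658, all on the plus strand. The other 6 were on the minus strand, and Tf2-7 (chrI:5191060-5195145) and Tf2-8 (chrI:5195711-5199712) were direct neighbours. No other listed feature overlapped any of the 9.

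The motif of Mmi1 was searched for in the reading frames, since Mmi1 was the first protein pulled down. UNAAAC (any base at N) occurred 9 times in the sense strand of each copy, at the same positions in 9 of 9 copies, and 4 times in the opposite strand. The sites are shown as DNA from Tf2-1 with the motif in capitals, and the 22 nt printed were the same in all 9 copies.
Site at 72: gatggaatTCAAACatcagacg
Site at 381: cgtttaacTAAAACatttgaag
Site at 594: tcgtatggTAAAACtcacaagc
Site at 938: caaaacaaTAAAACttaacata
Site at 1424: taagtatgTCAAACccaatata
Site at 1736: tgaacatgTAAAACatgttaaa
Site at 2066: agaaaacaTTAAACaatgttta
Site at 2288: taagtctcTCAAACattggaga
Site at 3492: caagtattTCAAACagttaaag

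The starts of the last 2 sites were 1204 nt apart, the longest gap between neighbouring sites. This gave 2.25 motifs per kb of reading frame, against a median of 1.51 per kb over 5095 coding sequences, of which 28.5% were at least as dense and 2.73% held 9 or more. The letters reported for Mei2, UUUG, UUGG or UUAG, occurred 35 times in the sense strand of each copy (8.75 per kb) and 102 times in the opposite strand of Tf2-1, with no overlap with a UNAAAC site. The median coding sequence held 16.0 per kb of these letters, and 92.3% of coding sequences were at least as dense as Tf2. U made up 27.3% of Tf2-1 and A 38.7%. A match is a description of letters, not of binding.

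**Figure D1:**
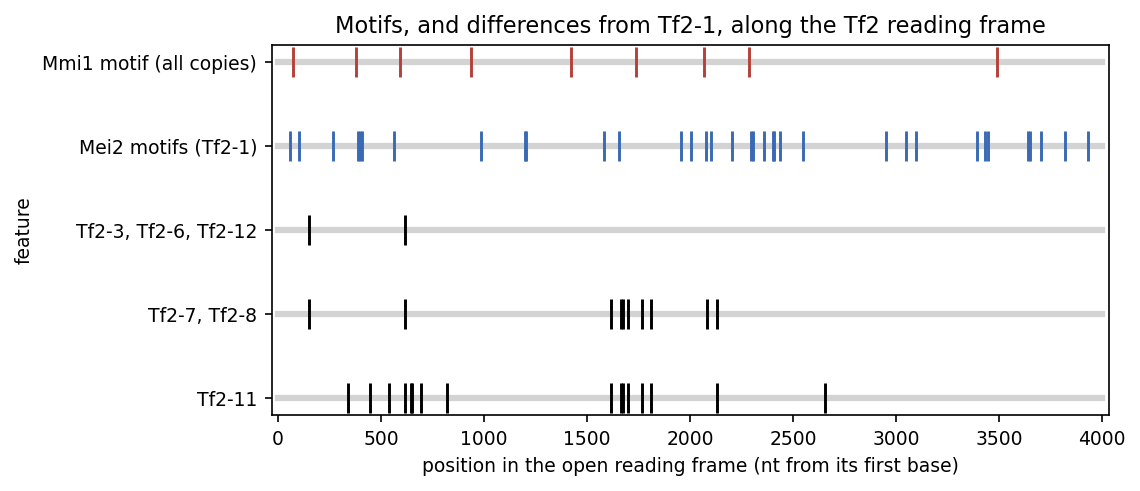
Positions along the Tf2 reading frame, in nt from its first base, of the 9 UNAAAC motifs shared by all 9 copies (red), of the 35 UUUG, UUGG or UUAG motifs of Tf2-1 (blue), and of the bases at which the other sequences differ from Tf2-1 (black). Tf2-3, Tf2-6 and Tf2-12 have 2 differences, Tf2-7 and Tf2-8 have 10 and Tf2-11 has 16, and none falls in a UNAAAC motif.

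Tf2 RNA was abundant in the whole-cell extracts. The sum of the 9 copies was 93355 and 72890 counts in the TAP extract and 54763 and 55647 counts in the GFP extract. As a level per length, the sum stood at 387 ± 31.0 CPM per kb (SD, n = 4 WCE libraries, scaled to library totals), above 97.4% of 5095 mRNAs. Single copies ranged from 35.6 to 57.4 CPM per kb, around the median mRNA at 38.8.

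The pulldowns held far fewer Tf2 counts. The sum was 7847 and 6129 counts in the TAP pulldown and 1249 and 1081 counts in the GFP pulldown. Scaled to library totals, this was 215 and 162 CPM in the TAP pulldown against 36.2 and 31.4 in the GFP pulldown, with 95% Wilson intervals of 211 to 220, 158 to 166, 34.3 to 38.3 and 29.6 to 33.3, which cover counting error only. The 2 TAP-Mmi1 pulldowns were above both controls on this scale, in libraries that also differed in their share of rRNA. Scaled to the counts that were not rRNA, the groups overlapped, with 1035 and 899 CPM in the TAP pulldown against 1000 and 787 in the control.

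Among the copies, Tf2-6 gave the highest count in 6 of 8 libraries. Tf2-6 had 1218 and 935 counts in the TAP pulldown, 13494 and 11089 in its extract, 164 and 140 in the GFP pulldown, and 7991 and 8244 in that extract. Tf2-1 had 1099 and 806 counts in the TAP pulldown, 12688 and 10400 in its extract, 180 and 147 in the GFP pulldown, and 7617 and 7883 in that extract, and it led in both GFP-Mmi1 pulldowns. Tf2-11 had 937 and 620, 10361 and 8496, 137 and 127, and 6462 and 6464 counts in the same order. These 3 are the plus-strand copies.

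The minus-strand copies were lower than all 3 in each of the 4 extract libraries, while in 3 of the 4 pulldown libraries at least 1 of them exceeded Tf2-11. Tf2-4, whose reading frame is the same as that of Tf2-1, had 694 and 588 counts in the TAP pulldown, 8701 and 6564 in its extract, 110 and 106 in the GFP pulldown, and 4968 and 5094 in that extract. Tf2-12, whose reading frame is the same as that of Tf2-6, had 768 and 689, 9503 and 7189, 134 and 99, and 5492 and 5472 counts in the same order. The other 4, Tf2-2, Tf2-3, Tf2-7 and Tf2-8, had 559 to 832 counts in the TAP pulldown, 6772 to 10208 in its extract, 106 to 149 in the GFP pulldown and 5169 to 5946 in that extract.

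**Figure D2:**
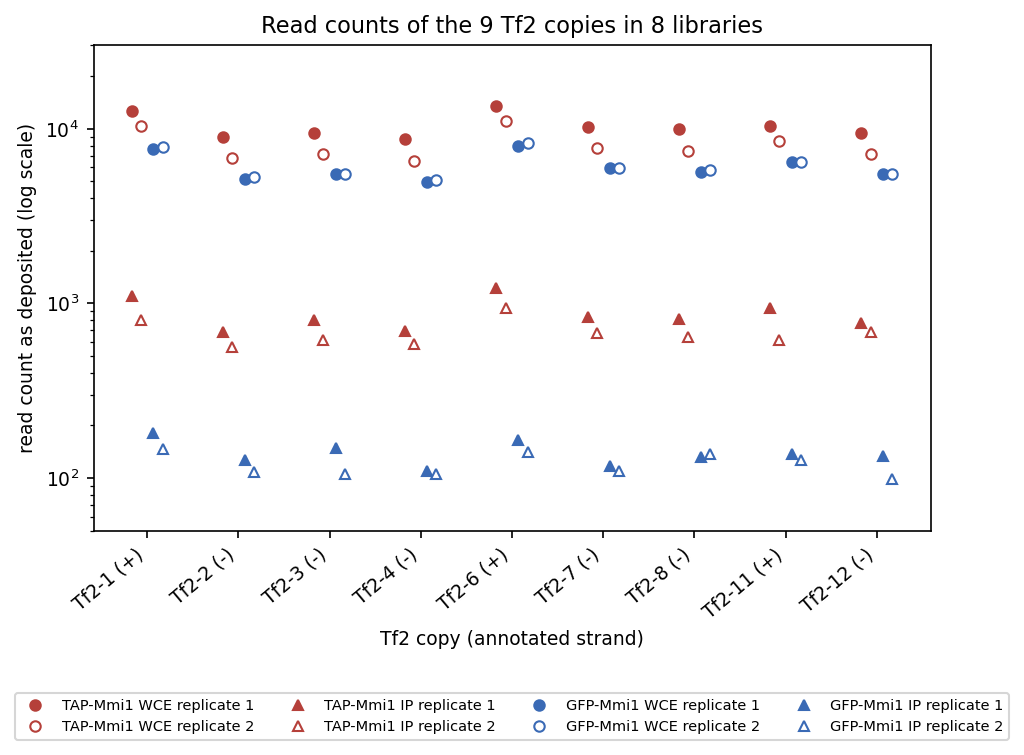
Read counts as deposited (log scale) of each of the 9 Tf2 copies, with the annotated strand in brackets. Circles are WCE and triangles IP, red is TAP-Mmi1 and blue GFP-Mmi1, filled symbols are replicate 1 and open symbols replicate 2. The plus-strand copies Tf2-1, Tf2-6 and Tf2-11 are the 3 highest in each of the 4 WCE libraries.

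Counts therefore differed between copies whose reading frames cannot be told apart. Tf2-1 over the mean of Tf2-2 and Tf2-4 was 1.59 and 1.41 in the TAP pulldown, 1.44 and 1.56 in its extract, 1.52 and 1.37 in the GFP pulldown, and 1.50 and 1.52 in that extract. Tf2-6 over the mean of Tf2-3 and Tf2-12 was 1.55 and 1.43, 1.42 and 1.55, 1.16 and 1.37, and 1.45 and 1.50 in the same order. The plus-strand copy was the higher in 8 of 8 libraries for both.

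In the first GFP extract, the exact Poisson intervals (95%) were 7447 to 7790 for the 7617 counts of Tf2-1 and 4831 to 5108 for the 4968 counts of Tf2-4, so this gap was larger than counting error. The mean of the 3 plus-strand copies was 1.24 to 1.42 times that of the 6 minus-strand copies, and they were the top 3 in 5 of 8 libraries, the 4 WCE libraries among them. With the 4 other Tf2 rows added, the 4 plus-strand rows (Tf2-10 is the fourth) were the top 4 of 13 in the same number of libraries. Over all mRNAs, the median WCE level was 38.1 CPM per kb on the plus strand and 39.5 on the minus strand. How reads that fit several copies were placed is not given in the sources used here, and its part in this difference was not tested.

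**Figure D3:**
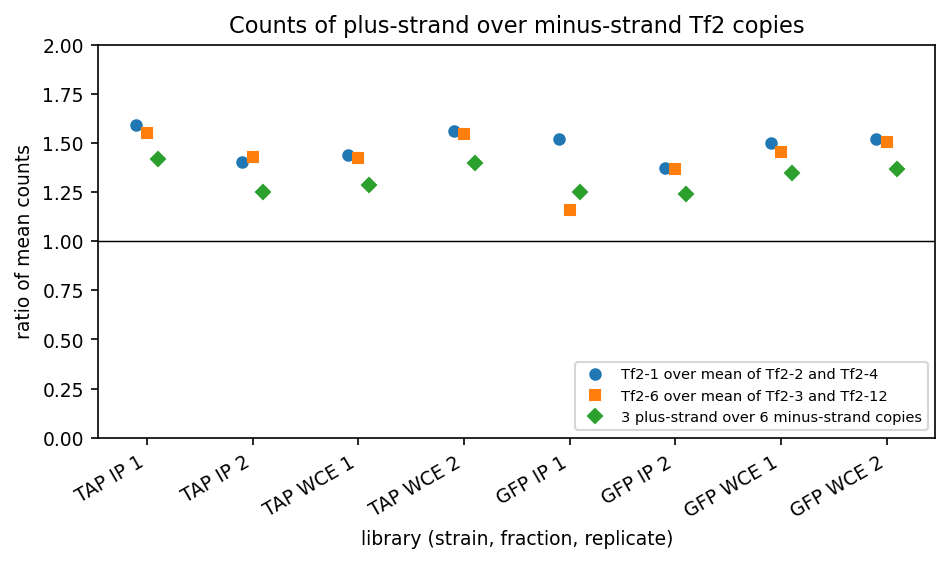
Ratio of counts of plus-strand over minus-strand Tf2 copies in each of the 8 libraries: Tf2-1 over the mean of Tf2-2 and Tf2-4 (circles, the same reading frame), Tf2-6 over the mean of Tf2-3 and Tf2-12 (squares, the same reading frame), and the mean of the 3 plus-strand over that of the 6 minus-strand copies (diamonds). The line marks equal counts, and the points lie between 1.16 and 1.59.

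The shares of the copies in the sum varied little between fractions and strains. Tf2-6 took 12.95% to 15.5% of the sum, Tf2-1 13.2% to 14.4%, Tf2-11 10.1% to 11.9%, and Tf2-4 8.81% to 9.81%. The lowest share of any copy in any library was 8.73% (Tf2-2) and the highest 15.5% (Tf2-6). In a single library the highest copy was 1.48 to 1.78 times the lowest.

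The first question of the design is how the level of each RNA in the double pulldown compares with its own extract and with the control. As counts, the IP/WCE ratio of the Tf2 sum was 0.0841 and 0.0841 with TAP-Mmi1 (mean 0.0841 ± 2.13e-05, SD, n = 2) and 0.0228 and 0.0194 with GFP-Mmi1 (0.0211 ± 0.00239, SD, n = 2), so the TAP-Mmi1 ratio was 3.98 times the control. The median mRNA had ratios of 0.125 and 0.0278, both above Tf2, and a median fold over the control of 4.40. Of 5100 mRNAs, 54.9% had a higher fold than the Tf2 sum. No test was made on these ratios, since 2 against 2 cannot pass an exact permutation test at 0.05. They take no account of library size or rRNA share, and the small SD with TAP-Mmi1 holds for counts as deposited. On the TMM scale the TAP-Mmi1 log2 difference of the sum was -0.91 without replicate 1 and -0.57 without replicate 2. Scaled to totals without rRNA and to TMM library sizes, the fold over the control was 0.897 and 0.818.

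By copy, the fold over the control ran from 3.53 for Tf2-2 and Tf2-8 to 4.65 for Tf2-6. The TAP-Mmi1 ratios ranged from 0.0730 (Tf2-11, replicate 2) to 0.0958 (Tf2-12, replicate 2). The GFP-Mmi1 ratios ranged from 0.0170 (Tf2-6, replicate 2) to 0.0270 (Tf2-3, replicate 1). Over all features the median ratios were 0.141 with TAP-Mmi1 and 0.0284 with GFP-Mmi1, and the median fold over the control was 4.67. A rule that retains features with a relative SD under 0.3 and a mean ratio over 2 times the control retained all 9 copies, as it did 58.3% of all features.

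**Figure D4:**
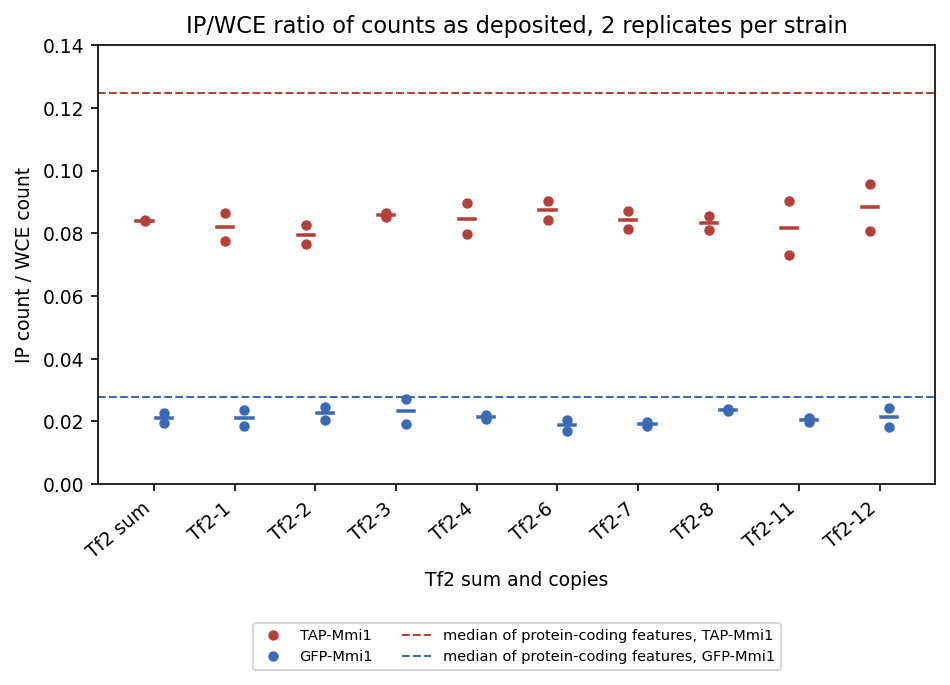
IP count over WCE count, as deposited, of the Tf2 sum and each of the 9 copies, with 2 replicates (points) and their mean (short line) for TAP-Mmi1 (red) and GFP-Mmi1 (blue). Dashed lines mark the median of protein-coding features, 0.125 and 0.0278, and the means of the Tf2 sum, 0.0841 and 0.0211, lie below them.

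After TMM normalisation, no Tf2 difference over the control passed the test. The sum stood at 328 and 258 TMM-scaled CPM in the TAP pulldown, 485 and 485 in its extract, 294 and 271 in the GFP pulldown, and 374 and 390 in that extract. In each strain both pulldowns were below both extracts, and the IP libraries of the strains overlapped. The difference between pulldown and extract in the TAP strain, less that in the GFP strain, was -0.29 on the log2 scale (SE 0.18, 95% interval -0.72 to 0.14, adjusted p = 0.241, edgeR's quasi-likelihood test with Benjamini-Hochberg adjustment over all features).

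None of the 9 copies passed this test in either direction, where 42.6% of the 6827 features tested did (18.9% higher, 23.7% lower). Their differences ran from -0.47 (Tf2-8 and Tf2-2) to -0.06 (Tf2-6), with a median of -0.31 against -0.05 over all features and -0.16 over mRNAs. Only Tf2-2 had an unadjusted p under 0.05 (1 of 9, against 51.3% of features), and DESeq2 called 0 of 9, where it called 50.1% of the 6973 features. Of mRNAs, 54.8% stood above the Tf2 sum. With library totals in place of TMM, the sign turned: the sum was 2.40 higher (adjusted p = 1.09e-06) and 9 of 9 copies were called higher, on a scale where 89.5% of features were called higher and the median of all features was 2.63.

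Within the TAP-Mmi1 strain, Tf2 RNA fell from extract to pulldown. The sum fell by 0.73 on the log2 scale (SE 0.13, edgeR adjusted p = 0.00194), and 9 of 9 copies were lower, where 30.7% of features were called lower. Copies fell by 0.67 (Tf2-12) to 0.81 (Tf2-2). The median mRNA differed by -0.18, and 69.6% of mRNAs stood above the Tf2 sum. Both WCE values were above both IP values for 9 of 9 copies, as they were for 43% of features. With library totals the sum was at -3.08, where the median of all features was -2.37. Without TAP-Mmi1 replicate 2, the sum was still called lower but only 4 of 9 copies were, where 20.3% of features were.

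Within the GFP-Mmi1 control, the difference was in the same direction and did not pass the threshold. The sum differed by -0.44 (SE 0.13, 95% interval -0.74 to -0.13, edgeR adjusted p = 0.0592). Of the copies, 2 of 9 were called lower, Tf2-6 by -0.61 and Tf2-7 by -0.57, where 6.44% of features were. With these, 7 of 9 had an unadjusted p under 0.05, against 33% of features. As the copies may share reads, they do not count as 7 separate results. Both WCE values were above both IP values for 9 of 9 copies, against 31.7% of features. With each IP paired with its own WCE (the culture as a block), 1 of 9 was called lower, where 3.94% of features were. DESeq2 called 5 of 9 lower, where it called 13.5% of the 6973 features lower, and the sum (-0.46, adjusted p = 0.00441). Without TAP-Mmi1 replicate 1, or without either GFP-Mmi1 replicate, 0 of 9 were called lower, where 1.34% to 4.25% of features were, and without TAP-Mmi1 replicate 2 the sum was (-0.57, edgeR adjusted p = 0.0413).

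**Figure D5:**
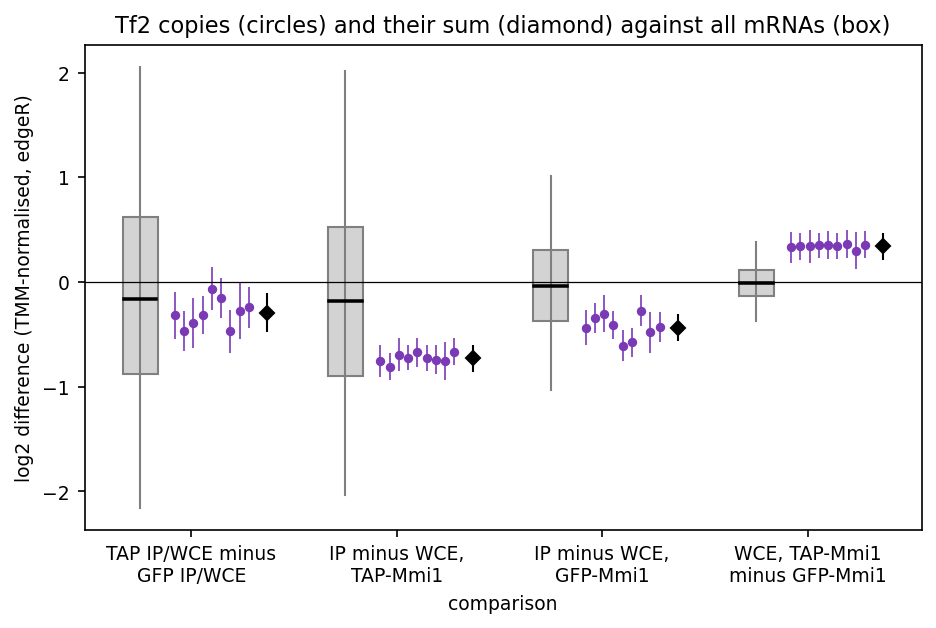
Log2 differences after TMM normalisation for the 9 Tf2 copies (circles, in the order Tf2-1, 2, 3, 4, 6, 7, 8, 11, 12) and their sum (diamond), with bars of 1 SE from edgeR, beside all mRNAs (box, quartiles and median; line, 5th to 95th percentile). The sum is at -0.29 for the TAP-Mmi1 difference minus the GFP-Mmi1 difference, -0.73 and -0.44 for IP minus WCE in each strain, and 0.34 for the WCE of the 2 strains.

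The extracts were compared to see whether the Tf2 level itself differed between strains. The sum was higher in the TAP extract by 0.34 (SE 0.13, 95% interval 0.04 to 0.65, unadjusted p = 0.0308, edgeR adjusted p = 0.478), which did not pass the threshold. The 9 copies ran from 0.30 to 0.36, none called in either direction, where 0.352% of features were called and 0.293% were called higher. Of the 9, 6 had an unadjusted p under 0.05, against 8.94% of features. These copies may share reads and do not count as 6 separate results. DESeq2 called 2 of 9 higher (Tf2-4 and Tf2-12), where it called 3.83% of the 6973 features higher. On the TMM scale both TAP-Mmi1 extracts were above both GFP-Mmi1 extracts for 9 of 9 copies, as for 33.7% of features. Scaled to library totals the strains overlapped, at 1738 and 1458 against 1503 and 1527 CPM. The rRNA share, at 14.2% and 27.4% against 7.98% and 11.6%, moved with the strain. Scaled to the counts that were not rRNA, the values were 2026 and 2008 against 1633 and 1727 CPM. With rRNA features left out before TMM, the sum was higher by 0.33 (edgeR adjusted p = 0.512). The part of rRNA in this difference was not tested.

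The 4 other Tf2 rows were measured in the same way. Tf2-10 and Tf2-13 have frames of 4001 nt, 1 nt short and not a multiple of 3, and Tf2-10 lacks 1 of the UNAAAC motifs. In the TAP extract they had 6512 to 11563 counts and in the GFP extract 4881 to 7135, with Tf2-10 the highest in each. Their differences over the control were -0.29 to -0.02. For this difference edgeR called 0 of 4, against 42.6% of features, and gave 0 of 4 an unadjusted p under 0.05, against 51.3%. In the TAP pulldown 4 of 4 were called lower than in its extract, against 30.7% of features. In the GFP pulldown 2 of 4 were called lower than in its extract, Tf2-9 (-0.72) and Tf2-13 (-0.70), against 6.44% of features. With all 13 rows summed, the difference over the control was -0.26.

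Other mRNAs rich in UNAAAC were set beside Tf2. Among the 1444 mRNAs tested with at least the Tf2 density of UNAAAC, the median difference over the control was 0.19, 26.5% were called higher and 17.4% lower. Over all 5070 mRNAs with a coding sequence these were -0.16, 17.5% and 27.1%. Among the 139 mRNAs with 9 or more motifs the median was -0.05, with 26.6% called higher and 28.8% lower. Tf2, at -0.29, lay below the median of each.

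The nearest listed features on either side of the 9 elements were 16 in number, leaving out Tf2 rows and antisense features that do not code for protein. They lay 437 nt (pvg2, beside Tf2-6) to 7510 nt (pyp2, from Tf2-7) from the element. For the difference over the control, 1 of 16 was called higher and 7 lower, against 18.9% and 23.7% of all features, and the median was -0.65 against -0.05. The higher one was SPAC1705.02, an uncharacterised gene next to Tf2-2 (1.63, SE 0.42, edgeR adjusted p = 0.0169). The lower ones were SPRRNA.53, a 5S rRNA gene on the other side of Tf2-2 (-2.92), dcr2, a phosphatase gene (-1.51), rpb6, encoding an RNA polymerase subunit (-1.21), amt3, an ammonium transporter gene (-1.15), mak2, a sensor kinase gene (-0.79), dhp1, a 5′-3′ exoribonuclease gene (-0.71), and brr2, encoding a U5 snRNP helicase (-0.50). For the difference over the control, the features on either side of Tf2-2 thus went opposite ways. Against its own extract, SPRRNA.53 was higher by 6.82 in the TAP pulldown and by 9.74 in the GFP pulldown. SPAC1705.02 differed by 1.10 and -0.53 in the same order. Since rRNA was depleted from the WCE RNA only, the 2 features are not on a like footing, and the part of this depletion was not tested. The counts of neighbours called changed with the libraries used and with the scaling. Fewer were called lower whenever a replicate was left out, so the calls named here rest on the full set of libraries. With library totals 13 were called higher, as were 89.5% of features, and 0 lower.

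Genes known to act on Tf2 elements were followed as mRNAs. The list held 17, among them the CENP-B homologues that silence Tf2 (cbh1, cbh2, and abp1, now named cbp1), the HIRA histone chaperone (hip1, slm9, hip3, hip4) and sre1, the sterol-responsive transcription factor that activates Tf2 in low oxygen. For the difference over the control, 3 of 17 were called higher, among them cbh1 (1.23) and set1, the histone H3K4 methyltransferase (0.56). Another 7 were called lower: sre1 (-1.69), clr3, a histone deacetylase (-1.07), slm9 (-1.06), sap1, a DNA-binding factor that guides insertion of the related Tf1 element (-0.92), fft2, a chromatin remodeller (-0.89), hip3 (-0.84) and cbh2 (-0.83). Of all features, 18.9% were called higher and 23.7% lower, and the list's median was -0.60 against -0.05. Without TAP-Mmi1 replicate 2, 1 of 17 was called higher and 0 lower, where 8.43% and 12.5% of features were, and with library totals 17 of 17 were called higher, as were 89.5% of features. In the extracts edgeR called 0 of 17 between strains and gave 3 an unadjusted p under 0.05, against 0.352% and 8.94% of features.

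The mRNAs with a profile most like that of the Tf2 sum were found by the root mean square difference of centred log2 TMM-scaled CPM over the 8 libraries. They were mpc2, encoding a mitochondrial pyruvate carrier (0.0992), SPAC9.08c, annotated as a steroid reductase (0.118), and ste6, encoding a Ras guanine nucleotide exchange factor of the mating pathway (0.121), among 5070 compared with a median of 0.530. Their differences over the control were -0.04, -0.34 and -0.33, none called. In the TAP pulldown mpc2 had 497 and 442 counts, and in its extract 5171 and 4510.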

How the data were processed

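The authors deposited 1 table of raw counts per library (8 in all), with 1 value for each annotated feature and no normalisation or pooling. Reads were paired-end (75 nt), demultiplexed with bcl2fastq 2.18.12, trimmed with cutadapt 1.15, aligned with Bowtie2 and counted with MulticovBed on Galaxy. The genome build, annotation, strand setting and treatment of reads with several matches are not given in the sources used here. Positions and sequences came from the RefSeq ASM294v3 reference, in which 6825 of 6973 features were found. Of 6974 rows, 1 with no feature name was left out (0.00177% to 0.0552% of counts).

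Counts were fitted with edgeR 4.0.16 (R 4.3.3; filterByExpr, TMM, robust quasi-likelihood) over 8 libraries as 4 groups, with a Benjamini-Hochberg adjusted p under 0.05. A second fit replaced the 9 rows by their sum. SE was derived by dividing the size of each log2 difference by the root of its F statistic. DESeq2 1.42.0, other scalings, no filter, blocks and leaving out each replicate were alternatives. The code was tested on simulated data. The ratio rule follows the study's own definition of reproducibly enriched features. An IP and the WCE with its strain and number were taken to share a culture, which the labels do not state. Their deviations correlated at 0.09 (TAP-Mmi1) and 0.03 (GFP-Mmi1).

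The members and lists were chosen with earlier results of these data known. Named were all 9 members, the other Tf2 rows, neighbours and host factors past the threshold for the difference over the control, and the 3 mRNAs with the most similar profile. The host factor abp1 was taken as SPBC1105.04c (now cbp1), since the symbol abp1 also names another gene; this match was corrected after a first fit had been seen. Of the host factors past the threshold, 1 is not reported here by name. Depth was 34415561 to 53703741 counts per library. The Wilson and Poisson intervals cover counting error only, while the edgeR intervals also cover the spread between libraries.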

Additional observations from a re-analysis of the deposited data

How the results depend on the processing

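The difference over the control kept its direction and stayed uncalled for the Tf2 sum under 11 of 12 alternatives (-0.48 to -0.01 when a replicate was left out). Library totals alone reversed it to 2.40 for the sum and to 2.38, 2.22, 2.30, 2.38, 2.63, 2.54, 2.22, 2.42 and 2.45 for Tf2-1, Tf2-2, Tf2-3, Tf2-4, Tf2-6, Tf2-7, Tf2-8, Tf2-11 and Tf2-12, with 9 copies, 4 of the other Tf2 rows, 17 host factors and 13 neighbours called higher and 0 host factors and 0 neighbours lower; 89.5% of all features were then called higher and their median was 2.63. Single copies also turned sign near 0: Tf2-6 was 0.017 with DESeq2 size factors, 0.076 without rRNA features and 0.017 with DESeq2, and, leaving out replicates, ranged from -0.30 to 0.27, Tf2-1 from -0.59 to 0.039, Tf2-7 from -0.29 to 0.089 and Tf2-11 from -0.64 to 0.15.

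With TAP-Mmi1, the sum was called lower under every alternative that kept all libraries. Leaving out replicates, it ranged from -0.91 to -0.57. It was nearest 0 without TAP-Mmi1 replicate 2, where fewer copies and fewer of the other Tf2 rows were called lower. With GFP-Mmi1, the sum passed the threshold with DESeq2 size factors (-0.45), library totals (-5.49), DESeq2 (-0.46) and without TAP-Mmi1 replicate 2 (range over replicates -0.57 to -0.35). The copies called lower were 9 with library totals, where 98.2% of features were and the median of all features was -5.05. They were 5 with DESeq2, where 13.5% of features were, and 1 with the culture as block, where 3.94% were. Between the extracts, DESeq2 called 2 copies higher, where 3.83% of features were. The cause of these changes was not tested.

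As a replicate block, the culture gave a difference over the control of -0.30 for the sum, and the replicate number -0.29; pairing changed no call of the sum and, among the copies, only that of Tf2-7 with GFP-Mmi1. Neighbours called higher were 2 with DESeq2 size factors, 2 without rRNA features and 3 with DESeq2, where 20.6%, 22.1% and 24.6% of features were. These counts also changed when a replicate was left out. Leaving out replicates also changed the number of host factors called, which was lowest without TAP-Mmi1 replicate 2.

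The IP/WCE ratio was 0.118, 0.479 and 0.606 with TAP-Mmi1 when counts were scaled to library totals, to totals without rRNA and to TMM library sizes. With GFP-Mmi1 it was 0.534 and 0.741 under the last 2. The fold over the control was 5.26, 0.897 and 0.818. The control pulldowns held the fewest Tf2 counts, 1081 and 1249, and the 95% interval of the difference over the control was -0.72 to 0.14.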
